A study of Homo sapiens with 2 samples.

Results

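The leukemia driver loci of THP-1 cells examined here are 7 genes, KMT2A, MLLT3, CDKN2A, CDKN2B, MTAP, NRAS and MYC, looked up in a list of PAX-8 ChIP-Seq peaks. A peak belonged to a gene when the authors had assigned it to that symbol, and this held for 1 peak of 45360. That peak belonged to MYC, so 1 of the 7 genes had a row in the list and the other 6 were unassigned. Peaks within 500 kb of each start site were counted as well. Peaks are places where fragments pulled down with the PAX-8 antibody pile up over the background, and the number of fragments also depends on how much DNA of a region the cells hold.

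The peaks were called by the authors in 1 PAX-8 ChIP library relative to 1 Input library, made from chromatin that was not immunoprecipitated. Both libraries came from THP-1 cells, an established line from a human monocytic leukemia. PMA (160 nmol/L, 24 h) was used to turn the cells into macrophages, ox-LDL (48 h) to turn these into foam cells, and C18-3OH, 3-hydroxystearic acid (100 µM, 24 h), was the treatment under study. No library of untreated cells was analysed here and no value has a replicate, so no comparison between conditions and no test was possible. Read totals were not at hand, so the depth is unknown, and DNA copy number was not measured. A peak list holds no expression values, so the cell type could not be checked against its markers.

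KMT2A encodes a histone H3 lysine methyltransferase that keeps HOXA genes active in blood progenitors, and MLLT3 encodes a subunit of the super elongation complex. In THP-1 cells a translocation between chromosomes 9 and 11 joins the start of KMT2A to the end of MLLT3, and the fusion protein drives the leukemia. CDKN2A and CDKN2B encode inhibitors of the cyclin-dependent kinases that inactivate RB, and their neighbour MTAP encodes the enzyme that recycles methylthioadenosine to methionine. These neighbours on the short arm of chromosome 9 are often lost together in leukemia. NRAS encodes a small GTPase that passes growth signals to the RAF kinases and is often mutated in myeloid leukemia. MYC encodes a transcription factor of cell growth, and its region on chromosome 8 is often gained.

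The MYC peak lay on chromosome 8 of hg19 from 128749555 to 128750168, inside the listed transcript, which starts at 128748476 on the plus strand and ends at 128755197. It was 614 bp long, was classed as promoter, which in this list means within 2 kb of a start site, and was 1385 bp from the MYC start site. It held 19 tags (exact Poisson 95% interval 11.4 to 29.7), where a tag is a sequenced fragment end counted in the peak. Intervals here cover counting error only. Its inferred background, explained further on, was 5.41 tags. The listed fold enrichment was 7.71, the score, the p-value on a scale of -10 log10, was 59.41, and the FDR was 0.2%. Of all peaks in the list, 62.5% had a lower fold enrichment, 83.2% had fewer tags and 80.3% had a lower score. The MYC peak thus stood above the list medians of 14 tags and a fold enrichment of 7.35, but not near the top of the list.

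Among all protein-coding genes, 54.8% had an assigned peak, 13.3% had a promoter peak and 32.9% had a peak with a fold enrichment of at least 8, which the MYC peak did not reach. Having 1 of 7 genes with a row describes these loci and was not tested. A gene without a row is not shown to lack a peak. FOCAD, which lies next to MLLT3, had no row, although peaks were assigned to MIR491 and SNORA30B inside it. Why FOCAD has no row was not tested.

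A further peak overlapped the MYC transcript but was assigned by the authors to CASC11, a long noncoding RNA gene that starts beside MYC on the other strand. It lay from 128750302 to 128751775, 133 bp beyond the MYC peak, and was classed as upstream of CASC11. This peak held 36 tags (25.2 to 49.8), the most within 500 kb of MYC, and its fold enrichment was 5.97. Before the MYC start site, the nearest peak was a CASC11 promoter peak from 128744007 to 128744681, with 18 tags and a fold enrichment of 5.15. The peak assigned to MYC was thus 1 of 3 neighbouring peaks around its start site, and by tags it was not the largest.

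Within 500 kb of the MYC start site lay 26 peaks (17.0 to 38.1). The median over 15538 autosomal start sites was 21, which gives MYC a ratio of 1.24 (0.809 to 1.81), and 64.1% of these start sites had fewer peaks. The MYC count thus did not differ from this median beyond counting error. These start sites belong to genes with a row, which favours places with peaks. Relative to the mean density over the autosomes, 16.1 peaks per Mb, the MYC count stood at 1.61 times, and its lower bound of 17.0 lay above that mean. PVT1, the noncoding RNA gene downstream of MYC, was assigned 10 of the 26 peaks and CASC11 was assigned 5. MIR1208 was assigned 3, MIR1206 and MIR1207 were assigned 2 each, and MYC, MIR1205, CASC8 and CASC21 were assigned 1 each. By class, 11 were in introns, 6 were intergenic, 6 were upstream and 3 were in promoters. Tags ran from 12 to 36 with a median of 18, and fold enrichments from 3.97 to 8.16. The plot of tags around MYC shows that most of these peaks lay on the PVT1 side.

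**Figure D1:**
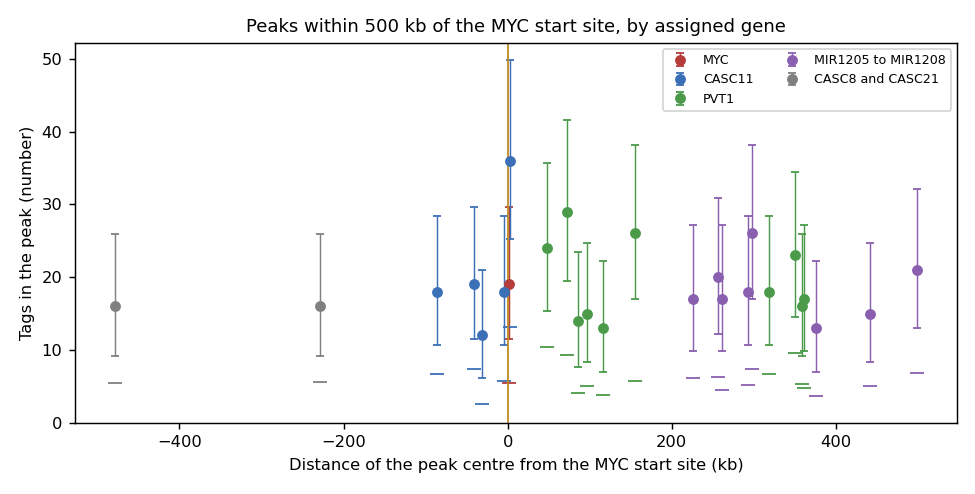
Tags of each of the 26 peaks within 500 kb of the MYC start site (vertical axis, number) against distance from the start site in kb, coloured by the gene to which the peak was assigned. Points carry exact Poisson 95% intervals and the short dashes mark the background in tags read from each listed p-value; the MYC peak has 19 tags and the CASC11 peak beside it 36.

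A background was inferred for each peak from the listed p-value, as the Poisson mean that would exceed the observed tags with that probability. This form of the p-value is an assumption, since the peak caller is not named, and every background given here rests on it. Per kb, the most frequent value was 5.94 tags, called the genome-wide background here, and a peak within 1% of it was called at the background. Of the autosomal peaks with such a value, 55.6% were at the background, and the share ran from 1.76% to 79.2% between chromosomes with a median of 72.3%. Peaks above the background had a median relative background, the value divided by the genome-wide one, of 1.23. The listed fold enrichment was not used to read the background, and gave a check chosen after the values were seen. A divisor of 0.817 was chosen because it brought the fold enrichments of the 25273 peaks at the background closest to whole numbers. Divided by it, 99.9% of these fell within 0.1 of a whole number, a share that the choice itself favours and so no check. The check was on the 18048 peaks above 1.05 times the background. Multiplied by the relative background and divided by 0.817, their fold enrichment fell within 0.1 of a whole number in 91.5%, where that tolerance covers 20% of values.

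None of the 26 peaks around MYC was at the background, 0 of 26 (Wilson 95% interval up to 12.9%), and their relative background ran from 1.19 to 1.55 with a median of 1.34. Of the autosomal start sites, 16.2% had no peak at the background within 500 kb. The 5 Mb before MYC held 120 peaks and the 5 Mb after it 95, again with 0 at the background on either side. On chromosome 8 as a whole, 52 of 2953 peaks were at the background (1.76%). The MYC neighbourhood was in this respect like the rest of its chromosome.

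KMT2A had no row. By gene order it lies between UBE4A, a ubiquitin ligase gene whose listed transcript ends at 118269926 on chromosome 11, and TTC36, whose start site is listed at 118398188. This interval is 128 kb long and held 2 peaks, both assigned to TTC36. The intergenic peak from 118375319 to 118376403 had 25 tags and a fold enrichment of 7.11. The promoter peak from 118397350 to 118398012 had 16 tags and a fold enrichment of 6.71. Neither can be placed relative to the KMT2A start site, since that site is not listed.

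Wherever the KMT2A start site lies in this interval, 30 to 40 peaks were within 500 kb of it. At the middle there were 36 (25.2 to 49.8), which is 1.71 times the median start site (1.20 to 2.37). KMT2A had the highest count of the 7 genes. At the middle it lay above the median beyond counting error, but at the position with 30 peaks the interval (20.2 to 42.8) includes the median of 21. It was not called peak-rich, a name kept for counts above 2 times the median, which 6.31% of start sites reached. Of the 36 peaks, 7 were at the background.

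The background differed between the sides of KMT2A. In the 5 Mb before the interval, 70 of 97 peaks were at the background (72.2%, 62.5% to 80.1%). In the 5 Mb after it, 0 of 152 peaks were (up to 2.46%), with a median relative background of 1.33. Peak density was 19.4 per Mb before and 30.4 per Mb after (25.8 to 35.6), and median tags were 12 and 19. On the centromere side and the other arm, from the start of chromosome 11 to UBE4A, 1393 of 1862 peaks were at the background (74.8%). From TTC36 to the end of the chromosome, 1 of 451 was (0.222%), with a median relative background of 1.31. The part of chromosome 11 beyond KMT2A thus had more peaks, more tags and a higher background than the part before it. Tags and background are not separate observations, since the background was solved from the tags and the p-value. At a given length, a peak over a higher background needs more tags to be listed. Over the autosomes, median tags were 13 at the background and 16 above it.

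To place this change, the share at the background in the 20 peaks before each boundary between neighbouring peaks was compared with that in the 20 peaks after it. This measure was chosen after values were seen, the largest step in each interval was taken, and neighbouring boundaries share peaks. A difference of at least 60 percentage points occurred at 0.66% of 44231 boundaries, in 55 runs on 14 chromosomes. In the KMT2A interval the share fell from 65% to 0%. All 12 boundaries of chromosome 11 with such a difference formed 1 run, from 117986790 to 118407046, which includes the KMT2A interval. Its largest step, 75 points, was between peaks assigned to MPZL2 and CD3E, ending at 118146825 and starting at 118179146. By the 1% limit, the last peak at the background was the MPZL2 one, 123 kb before the interval. The 307 peaks from there to APLP2, 11.8 Mb further on, included 0 at the background by that limit. The 3 peaks between MPZL2 and the interval, assigned to CD3E, CD3G and UBE4A, had relative backgrounds of 1.38, 1.04 and 1.05. The CD3G and UBE4A peaks are within 5% of the genome-wide value. With a limit of 5%, the UBE4A peak, the nearest before the interval, counts as at the background, and the step was -70 points. How far the change is spread before the interval thus depends on the limit. Whether it falls inside the gene cannot be read from these peaks.

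**Figure D2:**
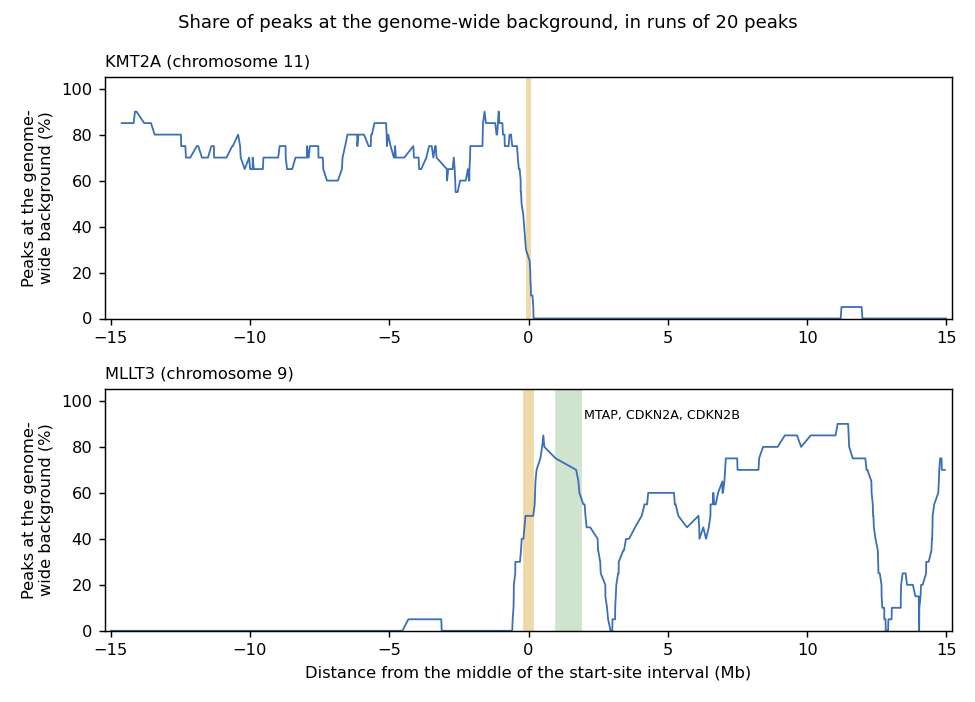
Share of peaks at the genome-wide background (%), in runs of 20 neighbouring peaks, against distance in Mb from the middle of the interval that holds the KMT2A start site (top) or the MLLT3 start site (bottom). Shaded bands mark the intervals. The share falls to 0% at KMT2A and rises from 0% before the MLLT3 start-site interval. These are steps of 65 and 85 points between 20 peaks on each side.

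MLLT3 had no row either. Its start site lies by gene order between MIR4473 and MIR491 on chromosome 9, from 20411236 to 20716103, which is 305 kb, and its body reaches towards SLC24A2, a cation exchanger gene, whose transcript edge is at 19789035. The start interval held 2 peaks and the interval with the gene body 19, with 11 to 34 tags and fold enrichments from 5.11 to 8.17. Within 500 kb of the start site lay 13 to 20 peaks, with 15 at the middle (8.40 to 24.7). This is 0.714 times the median start site (0.400 to 1.18), a difference within counting error.

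The share at the background changed within the body interval of MLLT3, from 0% in the 20 peaks before to 85% in the 20 peaks after. A step at least that large occurred at 15 of 44231 boundaries, in 7 runs. It was the largest of 20 boundaries in this body interval, where the KMT2A interval had 3. The last peak above the background, from 20318826 to 20319961, had 34 tags and a relative background of 1.77. The next, from 20380187 to 20380655, had 11 tags and a relative background of 1.00. These peaks lie 60.2 kb apart and both were assigned to MIR4473, a microRNA gene inside MLLT3 by gene order. The step lay before the interval of the start site, and the body interval does not show where the gene ends. From the start of chromosome 9 to SLC24A2, 2 of 298 peaks were at the background (0.671%), with a median relative background of 1.34. From MIR4473 to DMRTA1, 12 of 15 were (80%). The higher background thus lay on the telomere side of this step and the genome-wide one on its centromere side.

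The stretch at the background was short. It ran from 20380187 to 22649499, which is 2.27 Mb, with 17 of 20 peaks at the background, and the next 9 peaks were all above it. The higher background did not last, and peaks at the background came back from 23966245 on. In the 5 Mb from DMRTA1 on, which include the end of the stretch, 22 of 61 peaks were at the background (36.1%, 25.2% to 48.6%). Chromosome 9 changed often, with 61 boundaries of at least 60 points in 14 runs, and its largest step, 90 points, lay far from MLLT3, between 136819020 and 136821648. A large step was thus not particular to MLLT3 on this chromosome. That the KMT2A interval and the longer body interval of MLLT3 each hold a step is a description of 1 library. The part of DNA copy number in it was not tested.

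CDKN2A, CDKN2B and MTAP had no row and share 1 interval, between MIR31HG, whose edge is at 21559797, and DMRTA1, whose start site is at 22446822. In these 887 kb lay 3 peaks, all intergenic, all assigned to DMRTA1 and all at the background. They began at 22275113, 22353347 and 22389798, with 15, 15 and 13 tags and fold enrichments of 7.35, 6.54 and 7.35. Before them was a gap without peaks from 21538068 to 22275112, 737 kb long. It covered 80.6% of the interval.

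Gaps between neighbouring autosomal peaks had a median of 32.7 kb, and 0.486% were at least 500 kb long. The gap at these 3 genes was among the 81 of 45071 that were at least as long, 2 of them on chromosome 9, and 99.8% were shorter. Gaps over centromeres and unsequenced stretches are included. The peak before the gap, in an intron of MIR31HG, a long noncoding RNA gene, had 23 tags, a fold enrichment of 6.19 and a relative background of 1.72.

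Within 500 kb of the CDKN2A, CDKN2B or MTAP start site lay 1 to 8 peaks, depending on where in the interval it is, and 4 at the middle (1.09 to 10.2). This is 0.190 times the median start site (0.0519 to 0.488), the lowest of the 7 genes. Counts below 0.5 times the median were called peak-poor, and this held at every position in the interval, against 11.6% of start sites. Over 1 Mb tiles of the autosomes, which do not depend on genes with a row, the median was 14 peaks and 8.86% of tiles held 4 or fewer. These tiles include centromeres and unsequenced stretches, and 3.19% of them held no peak. Of the start sites, 0.972% had fewer than 4 peaks and 0.463% had 4. The loci were therefore poor in peaks relative to start sites of genes with a row. The tile median was set beside the middle count only, which was 0.286 times it. A count as low as at the middle was rare among start sites of genes with a row, and less rare among tiles. Whether DNA is missing there was not tested.

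NRAS had no row. It lies by gene order between BCAS2, a splicing factor gene listed at 115124236 on chromosome 1, and SIKE1, a kinase suppressor gene listed at 115312104. In these 188 kb lay 1 peak, from 115147630 to 115148264, intergenic and assigned to BCAS2, with 14 tags and a fold enrichment of 5.49. Within 500 kb lay 12 to 16 peaks, and 12 at the middle (6.20 to 20.96), which is 0.571 times the median start site (0.295 to 0.998). The upper bound lies just under 1, and at the position with 16 peaks the ratio was 0.762. Of the start sites, 14.6% had fewer than 12 peaks.

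As at MYC, 0 of the 12 peaks around NRAS were at the background (up to 24.2%), with a median relative background of 1.44. In the 5 Mb before NRAS 1 of 121 peaks was at the background, and in the 5 Mb after it 0 of 100, with median relative backgrounds of 1.37 and 1.38. On chromosome 1 as a whole, 1191 of 4644 peaks were at the background (25.6%), a larger share than on either side of NRAS. The chromosome was mixed, with 54 boundaries of at least 60 points in 11 runs. Its largest step, from 85% to 0%, lay far from NRAS, between 39752293 and 39870526. The plot of backgrounds by locus shows nearly all peaks above the genome-wide value on both sides of NRAS and MYC and on the telomere side of KMT2A. Around MLLT3 it shows them above that value on the telomere side. On the other side they are above it again beyond the stretch at the background, up to the end of the distance drawn.

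**Figure D3:**
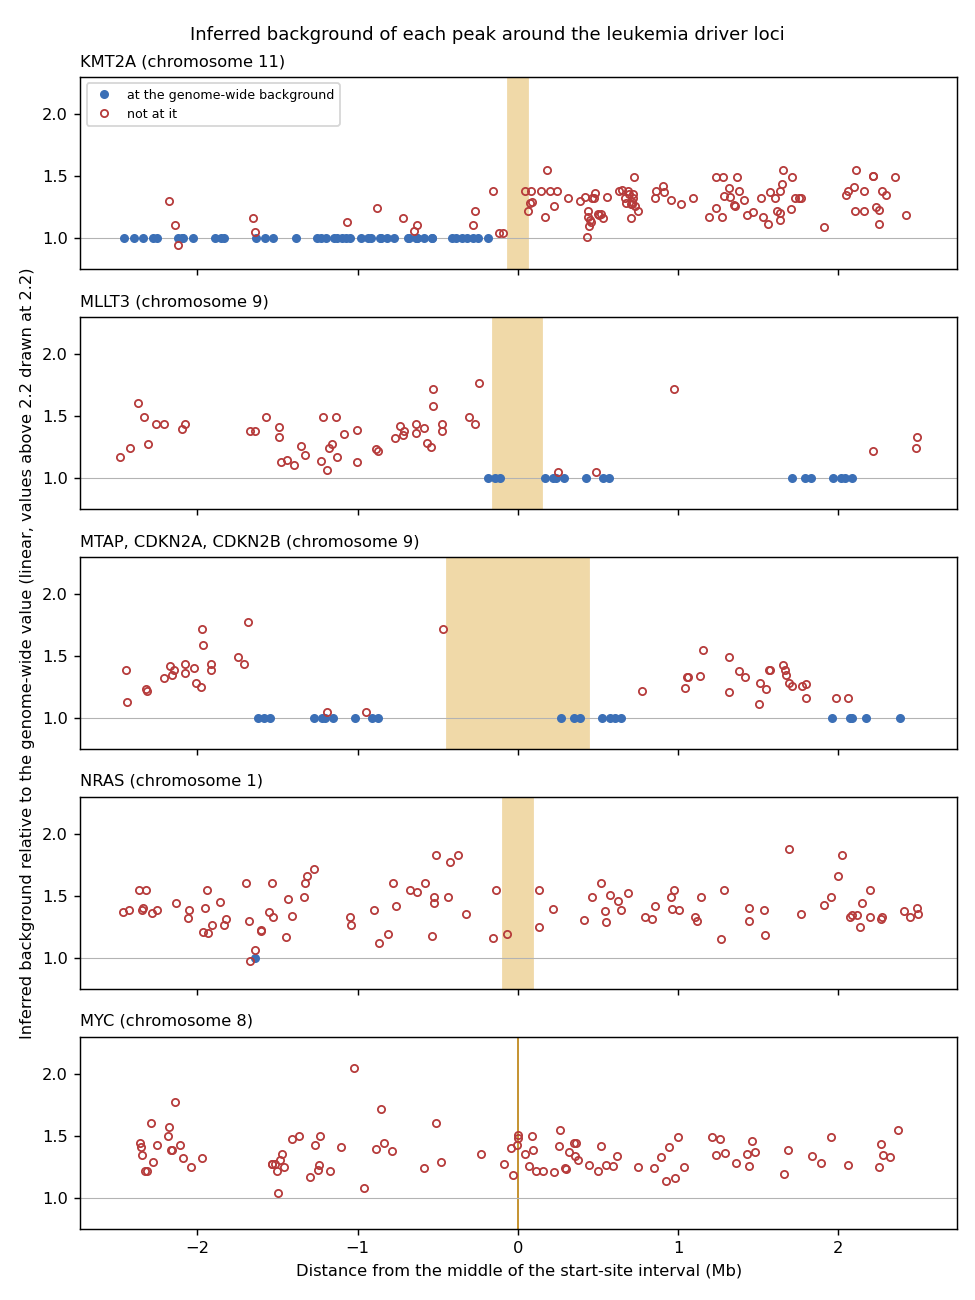
Relative background of each peak (linear, genome-wide value 1) against distance in Mb from the middle of the interval that holds each start site. Filled points are within 1% of the genome-wide background and open points are not; of the peaks within 500 kb, 7 of 36 at KMT2A, 8 of 15 at MLLT3, 3 of 4 at CDKN2A, CDKN2B and MTAP, 0 of 12 at NRAS and 0 of 26 at MYC are filled.

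**Figure D4:**
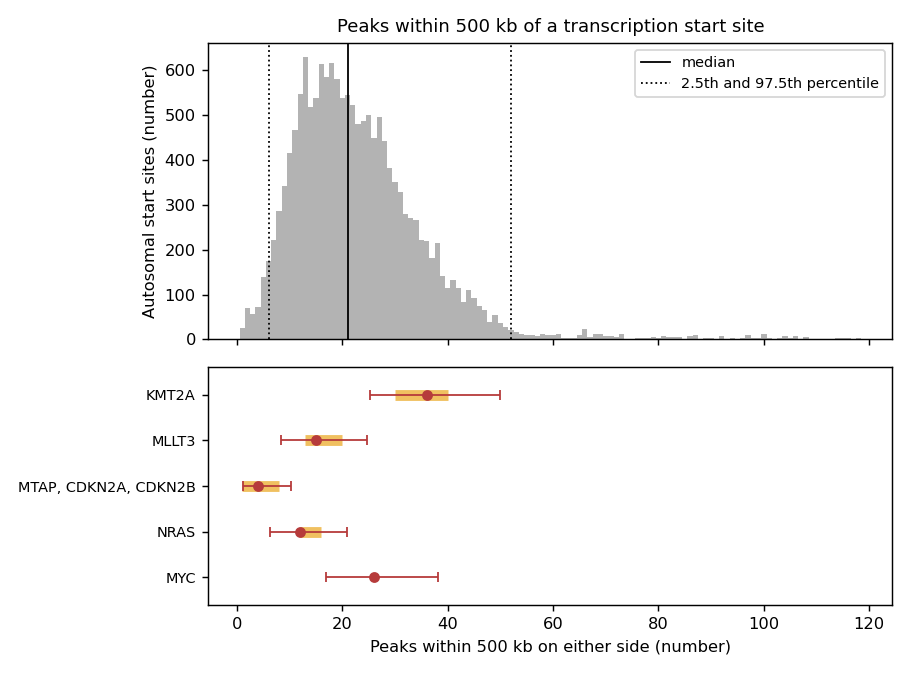
Top, number of autosomal start sites by their peaks within 500 kb, with the median (21) and dotted lines around the central 95% (6 and 52). Bottom, the same count at each locus, where points are the middle of the interval with exact Poisson 95% intervals and bands the range over the interval, from 1 to 8 at CDKN2A, CDKN2B and MTAP and from 30 to 40 at KMT2A.

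In the order of these counts, KMT2A (36), MYC (26), MLLT3 (15), NRAS (12) and the CDKN2A, CDKN2B and MTAP interval (4), the intervals of neighbours overlapped at the middle positions. Those of KMT2A and MLLT3 did not overlap, nor did those of MYC and the CDKN2A interval.

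Genes that work with the 7 were looked up by list and set beside the 54.8% of all protein-coding genes with a peak. A gene counts as having a peak when the authors assigned one to it, at any distance from its start site. Of 29 genes of the KMT2A complex, its fusion partners and its targets, 18 had a peak (62.1%, 44.0% to 77.3%). Promoter peaks were assigned to PSIP1, which tethers the complex to chromatin, to the elongation factor genes AFF1 and AFF3, and to CDK6. The AFF1 promoter peak, with 13 tags, had a fold enrichment of 10.62. An intergenic peak assigned to MLLT1, 71.3 kb from its start site, had the same value. An intergenic peak assigned to RUNX2, 215 kb from its start site, had 11.67. No row was found for MEN1, the scaffold of the complex, for MEIS1 or for any of HOXA5, HOXA7, HOXA9, HOXA10 and HOXA11, the classical targets of the fusion. As said above, a missing row does not show that a peak is missing. In the same list, JMJD1C had 9 peaks, MEF2C had 5, and PBX3 and BCL2 had 2 each.

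Of 18 RAS pathway genes, 13 had a peak (72.2%, 49.1% to 87.5%), with a promoter peak at the adaptor gene GRB2. The highest fold enrichment of the list, 12.25, was that of an intergenic peak assigned to the receptor gene KIT, 103 kb from its start site. Of 17 CDK inhibitor and RB pathway genes, 8 had one (47.1%, 26.2% to 69.0%), with promoter peaks at CDKN2D, a relative of CDKN2A, and at CDK6 and CCND1. Of 11 genes of methionine salvage and PRMT5, the pathway of MTAP, 3 had one (27.3%, 9.75% to 56.6%), namely AMD1, CLNS1A and ADI1. Peaks with a fold enrichment of at least 8 were assigned to 10 of the 29 KMT2A list genes, 9 of the 18, 4 of the 17 and 3 of the 11, beside the 32.9% over all protein-coding genes. The intervals of these 4 lists, given for any assigned peak, include the 54.8% over all protein-coding genes. No interval was computed for the fold enrichment of at least 8.

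Of 20 genes of the MYC network and the MYC neighbourhood, 12 had a peak (60%, 38.7% to 78.1%). Of the 16 that are protein-coding, as are the genes behind the 54.8%, 8 had one (50%). Promoter peaks were at MXI1, a MYC antagonist, at CASC11 and at FAM49B, also named CYRIB. MAX, the partner of MYC, had no row. Of 22 neighbours of the chromosome 9 genes, 10 had one (45.5%, 26.9% to 65.3%), or 9 of the 20 that are protein-coding (45%), and none had a promoter peak. SLC24A2, beside MLLT3, had 17 peaks with fold enrichments up to 10.06, and the interferon genes IFNW1 and IFNB1 had 1 each, with fold enrichments of 8.99 and 8.17.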

How the data were processed

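PAX-8 ChIP-Seq and Input libraries, 1 each, were made by the authors from C18-3OH-treated THP-1 foam cells. Each peak in the deposited list has a tag count, a fold enrichment (a ratio), a p-value score and an FDR in percent. The submitters' notes name FastQC and hg19; for the aligner and the peak caller: not given in the sources used here.

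Of 103443 lines, 1 per peak and transcript, 45360 unique peaks were kept. Backgrounds were solved from the deposited score and tag count, leaving out 4 peaks at the largest score, 3100. Symbols were matched to RefSeq GRCh38.p14 by accession (15628), symbol (58) or synonym (34), and 16 were unmatched. That table gave only names and gene order, which was taken to be that of hg19. A gene without a row was bracketed by its nearest neighbours with a row, and counts were taken over every position in the bracket. A peak lay within 500 kb by its centre.

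Genes named were the 7 genes, the genes of the nearest peaks or rows on each side, and from each list those with a promoter peak and up to 4 with the highest fold enrichment. FOCAD, MPZL2, CD3E, CD3G, APLP2, PVT1 and the other genes around MYC were named after values were seen. So were MEF2C, PBX3, BCL2 and list genes without a row. The genes and lists were chosen with earlier results of these data known. Shares carry Wilson and counts exact Poisson 95% intervals. Alternatives were other windows, stricter limits, merged peaks, other references and other numbers of peaks a side. The code that solves the backgrounds and compares shares was tested on simulated data, and no result was tested that way. Tools were scipy 1.17.1, pandas 2.3.3 and numpy 2.4.6 under Python 3.11.15, with figures from matplotlib 3.10.9.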

Additional observations from a re-analysis of the deposited data

How the results depend on the processing

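Of 98 alternatives, 81 left a value within its counting interval or within 1.5 times, and 17 moved it, 1 of these with a change of sign; the causes of the moves were not tested except where stated. With the median of 1 Mb tiles as the reference, which is lower than that of start sites, peaks within 500 kb were 2.57 times it at KMT2A and 1.86 times at MYC. With the mean density over the autosomes they were 2.23 times at KMT2A, above the limit of 2 for peak-rich, and 1.61 times at MYC. Both of these stayed within their counting intervals. With a fold enrichment of at least 8 MYC stood at 0.286 times the median and had 0 assigned peaks, as its peak has 7.71, while counting by overlap with its transcript gave 2. Around CDKN2A, CDKN2B and MTAP the ratio was 0 within 250 kb, with a score of at least 50 and with a fold enrichment of at least 8. With a score of at least 50, the share at the background at MLLT3 was 20% of 5 peaks, and the gaps grew, by fewer peaks, to 676 kb at MLLT3 and 1646 kb at CDKN2A. With 40 peaks a side the MLLT3 step was 42.5 points, as the stretch at the background holds 20 peaks, and the step at CDKN2A, -45 with 20 peaks a side, was 10 points and so changed direction. Counting promoter peaks alone, shares relative to all protein-coding genes were 0.417 for the RAS pathway, 1.32 for CDK inhibitors and RB, 0 for methionine salvage and 0 for the chromosome 9 neighbours. The tile reference and the numbers of peaks a side were chosen after seeing the data. Other start sites of MYC were not run, as 1 is listed, and shares at CDKN2A could not be had within 250 kb or at a score of at least 50, with no peak left. No paired analysis was possible because each group holds 1 library. The limit set by depth was not tested, as read totals were not at hand.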
